A study of Mus musculus with 4 samples.

Results

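The keratins Krt7, Krt8, Krt14, Krt18 and Krt19, the epithelial adhesion genes Epcam and Cdh1, and Cdh2 were 8 of the 20284 genes in a table of single-cell RNA counts from mouse embryoid bodies, which are aggregates of differentiating embryonic stem cells. The 8 genes were taken by name and not by a threshold on a measured value, but earlier results of these data were known when they were chosen. Embryoid bodies were grown from embryonic stem cells that had received a pulse of DUX, a transcription factor of the early mouse embryo, or from control embryonic stem cells, and were sampled at day 9. Each group had 2 libraries, described by the series as biological replicates. The cell line, the construct that supplied DUX and the length of the pulse were not given in the sources used here, and Dux itself was not analysed here. The libraries held unique molecular identifiers (UMIs), each of which stands for 1 captured transcript.

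Keratins are the intermediate filament proteins of epithelia. A filament needs a type II keratin (Krt8 or Krt7 here) and a type I partner (Krt18, Krt19 or Krt14 here), and Krt8 with Krt18 is the pair of simple, single-layered epithelia such as endoderm and trophoblast. Epcam is a surface adhesion protein of epithelia and of pluripotent stem cells. Cdh1 encodes E-cadherin, which joins epithelial cells, and Cdh2 encodes N-cadherin, which joins cardiomyocytes, neural cells and many mesenchymal cells; cells that leave an epithelium at the primitive streak are known to lose Cdh1 and gain Cdh2.

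The genes lie on 5 chromosomes of the mm10 genome. Krt7 (chromosome 15, 101411043 to 101430313, plus strand), Krt8 (chromosome 15, 101996698 to 102004482, minus strand) and Krt18 (chromosome 15, 102028180 to 102032027, plus strand) share a chromosome, and 23.7 kb separate Krt8 from Krt18. Krt18 is a type I gene that lies beside the type II genes. Krt19 (chromosome 11, 100140810 to 100148665, minus strand) and Krt14 (chromosome 11, 100203162 to 100207548, minus strand) lie 54.5 kb apart in the type I keratin cluster. Epcam is at chromosome 17, 87635979 to 87651129 (plus strand), Cdh1 at chromosome 8, 106603351 to 106670246 (plus strand), and Cdh2 at chromosome 18, 16588877 to 16809246 (minus strand). GENCODE places the opposite-strand genes Gm36026, Gm671 and Gm15485 over Krt8, Krt7 and Cdh2; none is a row of the table, and how the authors treated strand was not given in the sources used here. GENCODE also names 1 pseudogene each of Krt8 and Krt7, with which a part of their reads could be shared.

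Of 10090 cells, 8876 were kept, each with 500 genes or more and a mitochondrial share no higher than 10%. The DUX-pulsed libraries kept 2063 and 1353 cells with 65062824 and 36462169 UMIs, and the control libraries kept 2824 and 2636 cells with 96344329 and 78167098 UMIs. Median mitochondrial shares were 4.01% and 4.54% in DUX-pulsed libraries and 6.22% and 6.42% in control libraries. Clustering gave 27 groups of cells. A group was called "X-like" only where its leading genes came from a list of cell type markers that held none of the 8 genes, which named 14 groups in 12 classes. The other clusters are given by number and leading genes.

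The RefSeq promoter table held 5 of the 8 genes. The 250 bases before the start of Krt8 and Krt18, whose levels followed each other most closely over the groups of cells, are shown with those of Krt7 and Epcam, which passed the test in the whole culture (GRCm38.p6; Krt8 chr15:102004343-102004592, minus strand; Krt18 chr15:102027966-102028215, plus strand; Krt7 chr15:101412153-101412402, plus strand; Epcam chr17:87635729-87635978, plus strand). Capitals mark the E box CAGGTG or its other strand CACCTG, the letters that Snail and Zeb factors are known to bind, and the GC box GGGCGG or its other strand CCGCCC. Where 2 marks touch, the letters are counted for each. Krt14 was also in the promoter table and also passed the test in the whole culture. Its window is not shown and held neither the E box nor the GC box letters.
Krt8: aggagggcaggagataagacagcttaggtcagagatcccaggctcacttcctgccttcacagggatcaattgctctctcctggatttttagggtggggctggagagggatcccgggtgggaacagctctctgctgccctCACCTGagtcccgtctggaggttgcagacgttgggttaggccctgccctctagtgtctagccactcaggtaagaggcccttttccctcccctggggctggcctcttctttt
Krt18: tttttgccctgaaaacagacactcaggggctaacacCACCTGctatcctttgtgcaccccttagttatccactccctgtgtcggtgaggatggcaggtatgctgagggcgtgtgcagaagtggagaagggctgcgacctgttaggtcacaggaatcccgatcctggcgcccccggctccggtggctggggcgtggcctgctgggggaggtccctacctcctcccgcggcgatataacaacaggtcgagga
Krt7: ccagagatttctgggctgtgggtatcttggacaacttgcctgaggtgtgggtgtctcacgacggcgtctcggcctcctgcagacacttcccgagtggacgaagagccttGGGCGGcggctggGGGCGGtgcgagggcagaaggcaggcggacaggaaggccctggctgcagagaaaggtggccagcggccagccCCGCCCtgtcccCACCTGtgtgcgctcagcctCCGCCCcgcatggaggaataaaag
Epcam: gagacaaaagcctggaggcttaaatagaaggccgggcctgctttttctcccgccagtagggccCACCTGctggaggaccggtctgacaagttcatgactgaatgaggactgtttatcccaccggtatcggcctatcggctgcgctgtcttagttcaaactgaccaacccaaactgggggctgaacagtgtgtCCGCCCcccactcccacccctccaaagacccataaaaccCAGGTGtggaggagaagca

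The E box letters stood in 4 of the 5 genes' windows, Krt14 being without them, and in 17.2% of 32807 promoter windows of the same length. Krt7 held 4 GC boxes and Epcam held 1, and 32.7% of all windows held at least 1. The letters TATAAA or their other strand, present in 12.4% of all windows, and the AP-1 letters TGANTCA, present in 6.75%, were in none of the 5. These are matches of letters only. The starts are those of RefSeq, and for Krt8, Krt7 and Krt18 they lie inside the GENCODE gene span given above.

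The first comparison asked whether the 8 genes differed between DUX-pulsed and control cultures as a whole. Krt14 and Krt7 rose and Epcam fell in DUX-pulsed cultures, while Krt8, Krt18, Krt19, Cdh1 and Cdh2 did not pass the test. Counts were summed over all kept cells of a library, given as CPM, which are counts scaled to equal library totals after TMM adjustment, and tested with edgeR's quasi-likelihood test across 16140 genes, with p-values adjusted by the Benjamini-Hochberg method and called at 0.05. Of the 8 genes, 2 rose and 1 fell, where 15.6% of all tested genes rose and 11.1% fell (26.7% together). Their median log2 fold change was -0.23, against -0.002 over all tested genes. In summed cells, fewer cells of a type and less RNA per cell cannot be told apart.

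Among the keratins, Krt14, a type I keratin of basal stratified epithelium, had 2.65 and 2.09 CPM in DUX-pulsed libraries and 0.273 and 0.656 CPM in control libraries. The counts behind it were small, 166 and 76 UMIs in DUX-pulsed libraries and 26 and 54 UMIs in control libraries, and the groups did not overlap. Its log2 fold change was 2.36 (SE 0.469, adjusted p = 0.0158). Without the trophoblast-like cells the log2 fold change was 1.52 and no longer passed (adjusted p = 0.151), and with a stricter cell filter (1000 genes or more, mitochondrial share up to 5%) it was 1.71 (adjusted p = 0.122).

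Krt7, a type II keratin of ducts, bladder lining and trophoblast, had 53.5 and 39.3 CPM in DUX-pulsed libraries and 26.1 and 26.0 CPM in control libraries. Both DUX-pulsed libraries stood above both control libraries. The log2 fold change was 0.83 (SE 0.184, adjusted p = 0.0221). It passed without either DUX-pulsed library, and missed the threshold when control replicate 1 (0.85, adjusted p = 0.0742) or control replicate 2 (0.82, adjusted p = 0.093) was left out.

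Krt8 had 1265 and 1018 CPM in DUX-pulsed libraries and 1699 and 1646 CPM in control libraries. Its partner Krt18 had 1605 and 1118 CPM in DUX-pulsed libraries and 2252 and 1928 CPM in control libraries. Neither pair of libraries overlapped with its counterpart, and neither gene passed the test, with log2 fold changes of -0.55 (SE 0.174, adjusted p = 0.0642) for Krt8 and -0.62 (SE 0.222, adjusted p = 0.09) for Krt18. Under DESeq2 both passed, at adjusted p = 0.0132 and 0.0286, and both passed without DUX-pulsed replicate 1, at log2 fold changes of -0.70 (adjusted p = 0.0495) and -0.89 (adjusted p = 0.022). Krt19, a type I keratin of simple epithelia, had 468 and 316 CPM in DUX-pulsed libraries and 398 and 341 CPM in control libraries. It was the 1 gene of the 8 whose groups overlapped (log2 fold change 0.08, SE 0.225, adjusted p = 0.813); in 67.6% of all tested genes the groups did not overlap.

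Among the adhesion genes, Epcam had 308 and 329 CPM in DUX-pulsed libraries and 508 and 633 CPM in control libraries. Its log2 fold change was -0.84 (SE 0.172, adjusted p = 0.0175), and every DUX-pulsed library stood below every control library. The call was lost without control replicate 2 (adjusted p = 0.0979) and with the stricter cell filter (adjusted p = 0.0666). Cdh1 had 43.4 and 42.6 CPM in DUX-pulsed libraries and 56.2 and 70.3 CPM in control libraries, a log2 fold change of -0.56 (SE 0.163) that missed the threshold at adjusted p = 0.0515. Cdh2 had 102 and 173 CPM in DUX-pulsed libraries and 77.7 and 100.1 CPM in control libraries (log2 fold change 0.63, SE 0.279, adjusted p = 0.146). The 2 DUX-pulsed libraries lay far apart for Cdh2, and the lower one was close to the higher control library. Without DUX-pulsed replicate 1 the log2 fold change of Cdh2 was 0.98 (adjusted p = 0.00613).

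**Figure D1:**
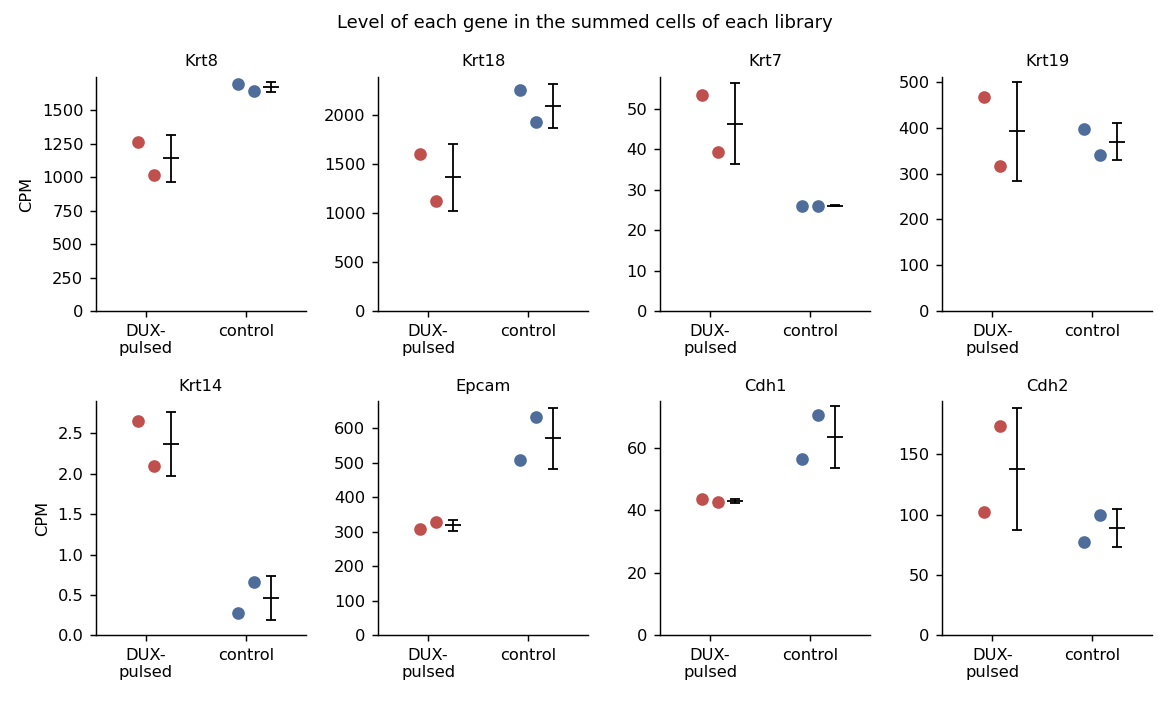
Level of each of the 8 genes in each library, in CPM of summed cells on a linear axis from 0, with 1 point per library and, beside each group, the mean with its SD (n = 2). Krt7 and Krt14 were higher and Epcam lower in both DUX-pulsed libraries, and the groups overlapped for Krt19.

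The 50 tested genes nearest to each of the 8 genes had median log2 fold changes between -0.18 (around Cdh1 and Epcam) and 0.16 (around Krt18).

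The next question was which cells carried the genes. Levels here are plain CPM of summed UMIs per cluster, for the 22 clusters with at least 20 cells that were not of low depth. Because the clusters were made from the same cells, and 4 of the 8 genes were among the genes used for it, these levels are a description and carry no test. A UMI count does not grow with transcript length, but capture can differ between genes, so a ratio of 2 genes is compared between clusters and not read as a ratio of molecules.

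Epcam and Cdh1 divided the clusters in the same way. Summed over libraries, Epcam was at 250.1 CPM or more and Cdh1 at 34.9 CPM or more in 14 clusters. In the other 8 clusters Epcam was at most 20.1 CPM and Cdh1 at most 2.26 CPM, with nothing between. By library the gap was not empty. The 28 cells of cluster 2 in control replicate 1 had 152.1 CPM of Epcam and 16.3 CPM of Cdh1. These levels came from 28 Epcam UMIs and 3 Cdh1 UMIs. In that library 1 cell held 26 of the 32 Epcam UMIs of the whole cardiomyocyte-like class, so the Epcam level rested mainly on 1 cell. Parietal endoderm-like cells of that library, from a high cluster, had 145.7 CPM of Epcam and 59.9 CPM of Cdh1. The low clusters were the mesenchyme-like, cardiomyocyte-like, endothelium-like, erythroid-like and myeloid and megakaryocyte-like cells and cluster 3, led by Tdgf1, Ankrd1 and Myh11. Over 53 sums of 1 cluster in 1 library the log2 levels of Epcam and Cdh1 had a Pearson r of 0.96 and a Spearman rho of 0.85; these sums share libraries and cells of like type, and the value is a description. Cdh2 did not follow Cdh1 (Pearson r = -0.21, Spearman rho = -0.37).

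Krt8 and Krt18 also followed each other (Pearson r = 0.97 over the same 53 sums). Krt8 was at 732.8 CPM or more in 15 clusters and at 93.3 CPM or less in the other 7. Of the 15 clusters, 13 were also high in Epcam. The 2 exceptions were both mesenchyme-like, and 1 cluster, the pluripotency-like cells, was high in Epcam without Krt8. 

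**Figure D2:**
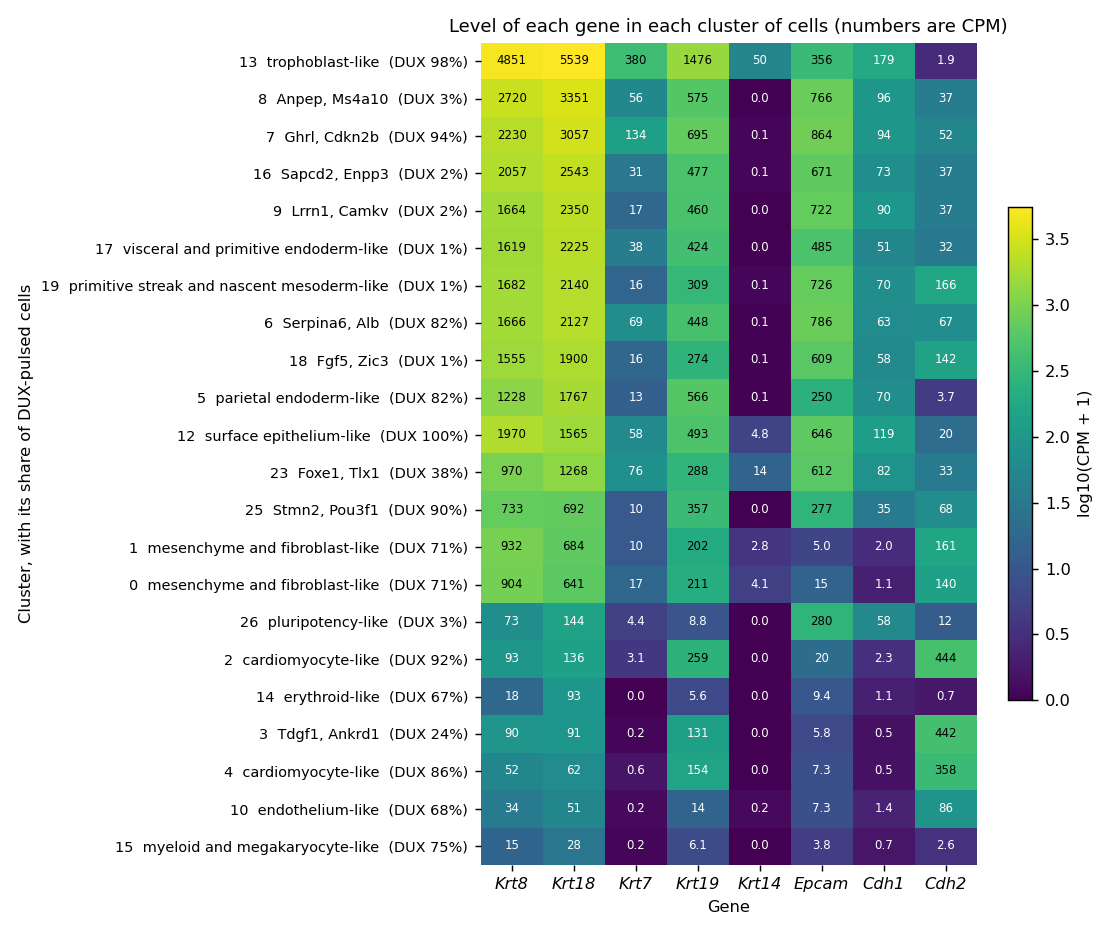
Level of each gene (columns) in each of 22 clusters (rows, with the share of DUX-pulsed cells), coloured by log10(CPM + 1) and with the CPM printed. Rows are ordered by Krt18; trophoblast-like cells were at the top with 5539 CPM, and the mesenchyme-like rows show Krt8 and Krt18 beside Epcam and Cdh1 near 0.

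Trophoblast-like cells, the outer lineage that forms the placenta, numbered 57 and all but 1 came from DUX-pulsed libraries. Summed over libraries, they had the highest level of all 5 keratins and of Cdh1 among the 22 clusters, with 4851 CPM for Krt8, 5539 CPM for Krt18 and 1476 CPM for Krt19. The DUX-pulsed libraries, with 40 and 16 such cells, differed from each other: Krt7 was at 423 and 219 CPM and Cdh1 at 143 and 313 CPM. The first place for Cdh1 rested on the 16 cells of DUX-pulsed replicate 2. In replicate 1 trophoblast-like cells held 10.85% of the Cdh1 UMIs with 3.16% of all UMIs. The 16 surface epithelium-like cells of replicate 1 held 3.825% with 1.101%, much the same proportion. Krt14 was at 61.8 and 5.47 CPM, from 127 and 3 UMIs, so that its first place rested on DUX-pulsed replicate 1, and cluster 23 reached 32.0 CPM in control replicate 2. Epcam was moderate at 356 CPM in the summed cells, and Cdh2 was near 0 at 1.92 CPM.

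The next 3 in order for Krt8 were clusters 8, 7 and 16, which the markers did not name. Cluster 8, led by Anpep, Ms4a10 and Tff3, had 2863 and 2645 CPM in the control libraries. Cluster 7, led by Ghrl, Cdkn2b and Nppb, had 2480 and 1859 CPM in the DUX-pulsed libraries, and cluster 16, led by Sapcd2 and Enpp3, had 2099 and 2033 CPM in the control libraries. The library values of clusters 7 and 16 overlapped, so their order is not fixed by these data. Cluster 7 had the highest Epcam level, at 852 and 897 CPM in DUX-pulsed libraries, a range that overlapped with that of cluster 6 and lay above the 686 and 828 CPM of cluster 8 in control libraries. It also stood second for Krt7, at 163 and 98.0 CPM in DUX-pulsed libraries. Its control counterpart in Krt8 level, cluster 8, had 50.3 and 58.8 CPM of Krt7 in control libraries. Clusters 7 and 8 each came almost wholly from 1 group (94.3% and 2.64% DUX-pulsed cells), and they had fewer than 20 cells in both libraries of the other group, so they were not tested here.

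Parietal endoderm-like cells, the cells that line the yolk cavity, combined keratins and Cdh1 with almost no Cdh2. In DUX-pulsed libraries they had 1289 and 884 CPM of Krt8 and 70.9 and 80.9 CPM of Cdh1, and control replicate 1 had 1083 CPM of Krt8 and 59.9 CPM of Cdh1. Cdh2 made up 4.64% and 4.40% of the Cdh1 and Cdh2 UMIs in DUX-pulsed libraries and 7.43% in control replicate 1. Control replicate 2 had fewer than 20 such cells and its levels are not given. The class was uneven between the DUX-pulsed libraries, with 252 cells in replicate 1 and 28 in replicate 2. These cells held 20.95% and 2.95% of all UMIs there. They held 35.5% and 5.62% of the Cdh1 UMIs, 26.7% and 3.28% of the Krt18 UMIs and 28.8% and 3.68% of the Krt19 UMIs. The near-equal Cdh1 levels of the 2 DUX-pulsed cultures thus came from different cells.

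Mesenchyme-like cells carried Krt8 and Krt18 with almost no epithelial adhesion RNA. The class held cluster 0 (453 cells), whose leading genes include Upk3b, Upk1b and Bnc1, known from mesothelium, beside the matrix genes Lum and Dcn, and cluster 1 (644 cells), led by the collagens Col3a1 and Col1a1. Together they summed to 1803 CPM of the 5 keratins, against 9.91 CPM of Epcam and 1.53 CPM of Cdh1, and its Cdh2 was at 150.2 CPM. With each cell thinned to 5000 UMIs, 68.4% of 1072 mesenchyme-like cells had a Krt8 UMI and 2.24% had an Epcam UMI, and 66.6% had Krt8 without Epcam. A Krt18 UMI was found in 65.4% of them, a Krt19 UMI in 34.5%, a Krt7 UMI in 4.66% and a Krt14 UMI in 0.933%. The share with a Krt8 UMI was 69.6% in cluster 0 and 67.5% in cluster 1. At the same depth, 8.64% of 162 myeloid and megakaryocyte-like cells and 19.7% of 636 cardiomyocyte-like cells had a Krt8 UMI. Vim, the type III filament gene of mesenchyme, was at 2894 CPM in the same class.

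The balance of Krt8 to Krt18 UMIs also differed between groups of cells. It was above 1 in 4 of the 22 clusters, at 1.41 in cluster 0 and 1.36 in cluster 1 (mesenchyme-like), 1.26 in surface epithelium-like cells and 1.06 in cluster 25, led by Stmn2 and Pou3f1. In the other 18 clusters it lay between 0.190 and 0.987. By library the mesenchyme-like class had ratios of 1.41 and 1.46 in DUX-pulsed libraries and 1.19 and 1.47 in control libraries, so the groups overlapped. Cluster 3 ranged so widely, 0.634 and 1.47 in DUX-pulsed libraries and 0.996 and 1.0 in control libraries, that it also reached the mesenchyme-like range.

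Cardiomyocyte-like cells had little Krt8 and Krt18. Summed over libraries, with 90.7% of the cells DUX-pulsed, Krt19 made up most of their type I keratin UMIs. Its share of the type I UMIs of the 3 measured genes was 67.0%, against 59.0% in cluster 3, 23.7% in the mesenchyme-like class and 18.5% in cluster 7. The DUX-pulsed libraries had 2126 and 1558 Krt19 UMIs against 1012 and 715 Krt18 UMIs, and control replicate 2 had 46 against 32. In control replicate 1 Krt19 was not ahead, with 131 UMIs against 142 Krt18 UMIs, of which 1 cell held 90. The level of Krt19 itself was 220 CPM, against 206 CPM in the mesenchyme-like class and 695 CPM in cluster 7, while Krt18 was at 109 CPM, against 662 CPM in the mesenchyme-like class. With cells thinned to 5000 UMIs, 51.4% of cardiomyocyte-like cells had a Krt19 UMI and 19.7% had a Krt8 UMI. There were 0.244 type II UMIs (Krt8 and Krt7) per type I UMI in the class, against 1.07 in the mesenchyme-like class. The class held Cdh2, the cadherin of the intercalated disc, at 412 CPM, and 84.0% of its thinned cells had a Cdh2 UMI. The 3 clusters at the top of the Cdh2 order were cluster 2 (444 CPM), cluster 3 (442 CPM) and cluster 4 (358 CPM), and their library values overlapped.

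Pluripotency-like cells had adhesion RNA and little keratin. The 29 cells of control replicate 1 had 279 CPM of Epcam and 58.3 CPM of Cdh1, with 74.7 CPM of Krt8 and 9.06 CPM of Krt19. With cells thinned to 5000 UMIs, 44.8% had Epcam without Krt8.

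Several clusters held both Cdh1 and Cdh2. In the primitive streak-like cells, where epithelium turns into mesoderm in the embryo and which came almost wholly from control libraries, Cdh2 was at 139 and 196 CPM and Cdh1 at 65.2 and 74.0 CPM in the control libraries. Cluster 18, led by Fgf5 and Eomes and also almost wholly of control cells, had 131 and 158 CPM of Cdh2 and 52.7 and 63.9 CPM of Cdh1. Both also held Epcam, Krt8 and Krt18 at epithelial levels, such as 684 and 779 CPM of Epcam in the primitive streak-like cells. With cells thinned to 5000 UMIs, 14.9% of 457 primitive streak-like cells and 9.80% of 551 cells of cluster 18 had UMIs of both cadherins, where the product of the 2 single shares was 13.2% and 10.8%. Clusters of mostly DUX-pulsed cells held both as well: in summed cells Cdh1 and Cdh2 were at 63.1 and 67.4 CPM in cluster 6 and at 94.0 and 51.9 CPM in cluster 7. UMIs of both were in 6.01% of 333 thinned cells of cluster 6 (product 6.70%) and 8.09% of 482 of cluster 7 (product 6.36%).

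**Figure D3:**
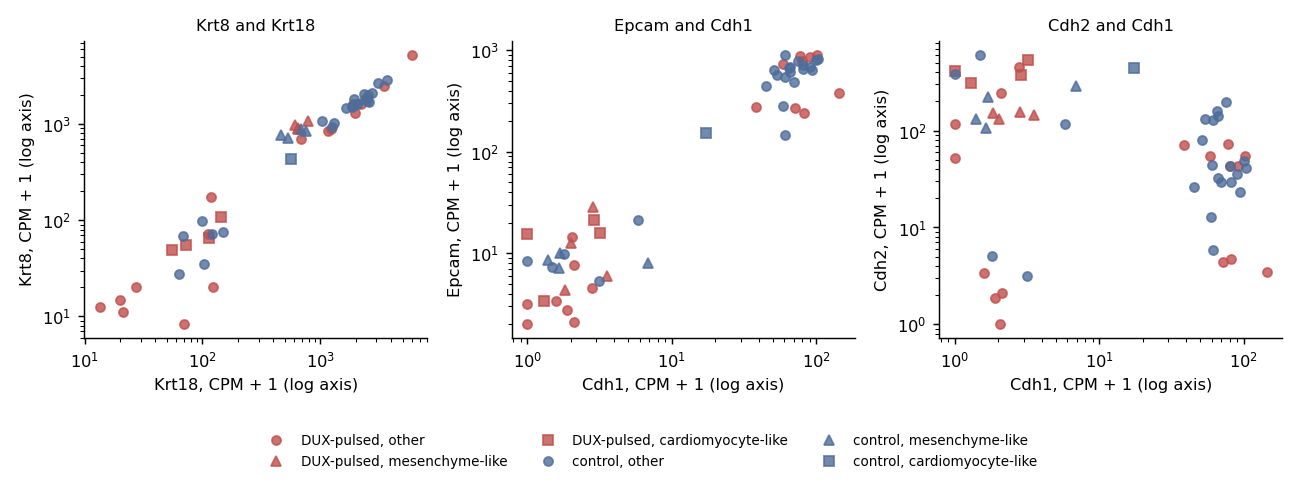
Each point is 1 cluster in 1 library with at least 20 cells, 53 in all, on log axes of CPM + 1. Krt8 follows Krt18 (left) with the mesenchyme-like triangles above the trend. Epcam and Cdh1 (middle) fall into a low and a high group, with cluster 2 of control replicate 1 between them. That point rests on 28 Epcam UMIs, mainly of 1 cell, and 3 Cdh1 UMIs. Cdh2 (right) does not rise with Cdh1.

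The following comparison set the whole-culture levels beside the cells that held the UMIs. Krt14 had a different source in each DUX-pulsed library. In DUX-pulsed replicate 1, trophoblast-like cells held 76.5% of its 166 UMIs, and 1 cell alone held 73 UMIs. In DUX-pulsed replicate 2, mesenchyme-like cells held 82.9% of its 76 UMIs, spread over 24 cells, and trophoblast-like cells held 3.95%. In control replicates 1 and 2, 65.4% and 61.1% of the 26 and 54 UMIs were in cluster 23, led by Foxe1, Tlx1 and Trp63, the last a transcription factor of stratified epithelium.

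The Krt7 UMIs came mainly from cluster 7 in DUX-pulsed libraries (37.6% and 41.4%), with cluster 6 next in replicate 2 (23.9%) and trophoblast-like cells next in replicate 1 (26.0%). In control libraries they came from clusters 8 (22.2% and 38.0%) and 16 (16.6% and 22.7%) and from visceral and primitive endoderm-like cells (23.4% and 10.8%). For Epcam, clusters 6 and 7 held 30.1% and 34.1% of the UMIs in DUX-pulsed replicate 1 and 32.6% and 45.3% in DUX-pulsed replicate 2. In control libraries Epcam was spread over many clusters, none of which held more than 22.0%.

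The cells that held Cdh2 differed between the groups. Cardiomyocyte-like cells held 50.2% and 56.2% of Cdh2 UMIs in DUX-pulsed libraries and 3.11% and 2.88% in control libraries. Cluster 3, unnamed but with 15 of 16 cardiomyocyte markers raised, held 3.49% and 4.05% in DUX-pulsed libraries and 13.1% and 14.9% in control libraries. Mesenchyme-like cells held 28.4% and 25.1% in DUX-pulsed libraries and 8.75% and 10.3% in control libraries. Cluster 18 and the primitive streak-like cells together led in control libraries, at 32.2% and 18.0% in replicate 1 and 24.0% and 19.7% in replicate 2. Cardiomyocyte-like cells made up 18.3% and 19.7% of kept cells in DUX-pulsed libraries and 1.52% and 0.873% in control libraries, and cluster 3 made up 1.84% and 1.48% in DUX-pulsed libraries and 3.65% and 3.07% in control libraries.

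**Figure D4:**
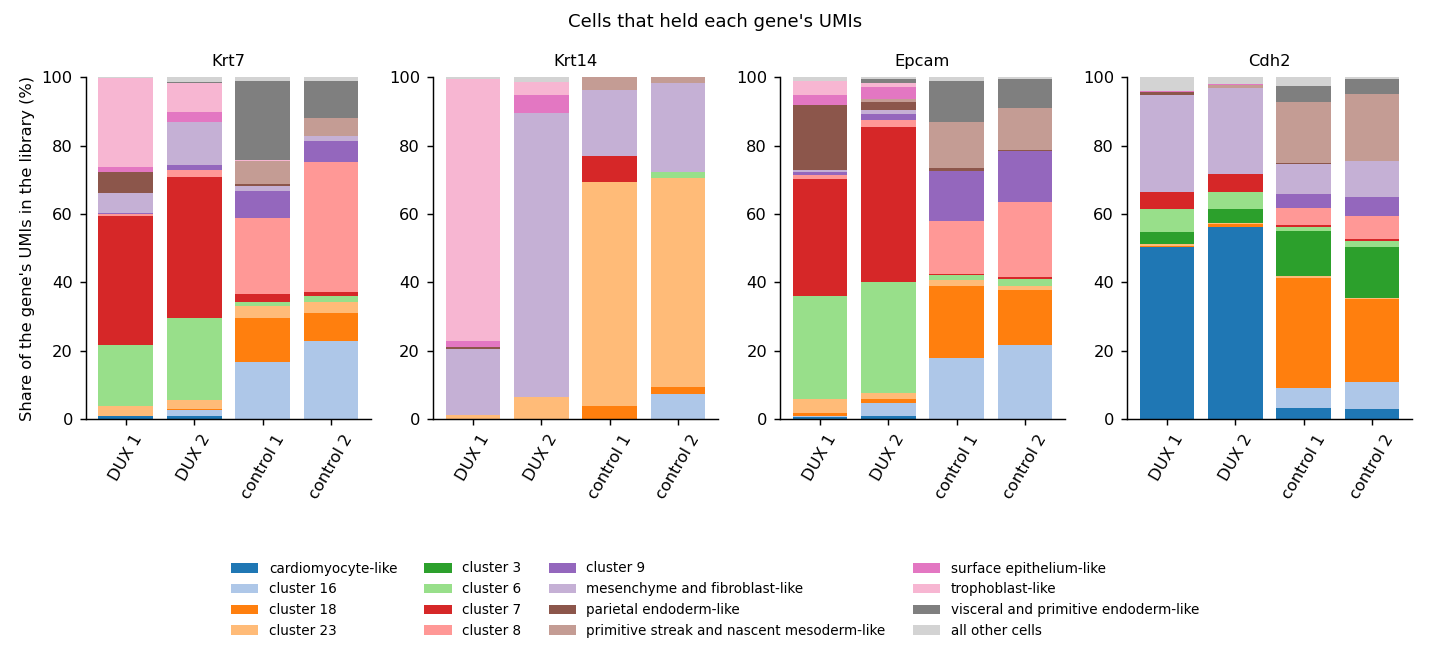
Share of the UMIs of Krt7, Krt14, Epcam and Cdh2 (in %) held by each class or cluster, with 1 bar per library. For Krt14, trophoblast-like cells held 76.5% in DUX-pulsed replicate 1 and mesenchyme-like cells 82.9% in DUX-pulsed replicate 2, while cluster 23 led in both control libraries.

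Whether the genes differed between DUX-pulsed and control cells of the same kind was then tested in the classes with at least 20 cells in every library, which were the mesenchyme-like and cardiomyocyte-like classes and clusters 0, 1, 3 and 6. In mesenchyme-like cells Krt19 and Krt7 rose. Krt7 also rose in cluster 6, led by Serpina6, Alb and Itih2. Apart from these and Krt19 in clusters 0 and 1, no call was made in them for any of the 8 genes.

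The mesenchyme-like class held 451 and 326 cells in DUX-pulsed libraries and 199 and 121 cells in control libraries. Krt19 had 274 and 227 CPM in DUX-pulsed mesenchyme-like cells and 118 and 105 CPM in control ones, and the groups did not overlap. Its log2 fold change was 1.17 (SE 0.187, adjusted p = 0.0109), and it passed in every alternative run, with adjusted p between 1.01e-06 and 0.0419. The 5 cells with most Krt19 held 15.3% and 13.4% of its UMIs in DUX-pulsed libraries and 29.1% and 29.9% in control libraries. It was called in both parts of the class, at a log2 fold change of 1.33 in cluster 0 (adjusted p = 0.00648), led by Upk3b and Lum, and 1.02 in cluster 1 (adjusted p = 0.00788), led by Col3a1 and Col1a1. In each cluster 1 of 7 genes tested was called, where 4.11% of 10953 genes were called in cluster 0 and 8.94% of 11039 in cluster 1. The call was lost in cluster 0 with the stricter cell filter (0.94, adjusted p = 0.0837) and in cluster 1 without control replicate 2 (0.91, adjusted p = 0.0559).

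Krt7 had 15.6 and 18.1 CPM in DUX-pulsed mesenchyme-like cells and 6.67 and 7.80 CPM in control ones (log2 fold change 1.23, SE 0.247, adjusted p = 0.0239). The counts were 194 and 180 UMIs in DUX-pulsed libraries and 38 and 28 UMIs in control libraries. Its call was lost with the stricter cell filter, which brought the log2 fold change to 0.42 (adjusted p = 0.476), without control replicate 1 (adjusted p = 0.0632) and at a clustering resolution of 2 (adjusted p = 0.0598). Of the 8 genes, 2 rose in the class, where 4.35% of 12102 tested genes rose and 7.64% were called in either direction.

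The other keratins of the class did not pass. Krt8 had 1055 and 956 CPM in DUX-pulsed mesenchyme-like cells and 846 and 684 CPM in control ones (log2 fold change 0.39, SE 0.18, adjusted p = 0.243). Krt18 overlapped between the groups (log2 fold change 0.26, adjusted p = 0.557), as did Krt14 (log2 fold change 1.02, SE 0.682, adjusted p = 0.438). Without control replicate 2 Krt14 passed, at 2.31 (adjusted p = 0.0182). Cdh2 had 145 and 159 CPM in DUX-pulsed libraries, both of which lay between the 114 and 237 CPM of the control libraries (log2 fold change -0.20, adjusted p = 0.766).

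Cluster 6 held 180 and 95 cells in DUX-pulsed libraries and 26 and 33 cells in control libraries. Krt7 had 83.0 and 80.1 CPM in its DUX-pulsed cells and 24.2 and 31.6 CPM in its control cells. The log2 fold change was 1.54 (SE 0.232, adjusted p = 0.00337) and passed in every alternative run, with adjusted p up to 0.0113. None of these runs clustered the cells again. At a clustering resolution of 2, the cluster led by Serpina6 and Alb held 56 cells. Another cluster, of 300 cells, was led by Ghrl, Shh and Cdkn2b. Clustering without the genes studied here gave 340 cells led by Serpina6 and Alb. Whether the DUX-pulsed and control cells of cluster 6 were the same mix of subtypes was not tested. Of 7 genes tested in cluster 6, 1 was called, where 5.67% of 10657 tested genes were. Krt8 had 1773 and 1687 CPM in DUX-pulsed cells and 1978 and 1643 CPM in control cells, so the keratin pair of simple epithelia overlapped while Krt7 did not. Epcam, which fell in the whole culture, did not pass in cluster 6. Its log2 fold change there lay between 0.08 and 0.45 when 1 library was left out, so it was not lower in these DUX-pulsed cells. Krt19 (log2 fold change 0.43, adjusted p = 0.242), Cdh1 (0.45, adjusted p = 0.305) and Cdh2 (-0.53, adjusted p = 0.237) did not pass.

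**Figure D5:**
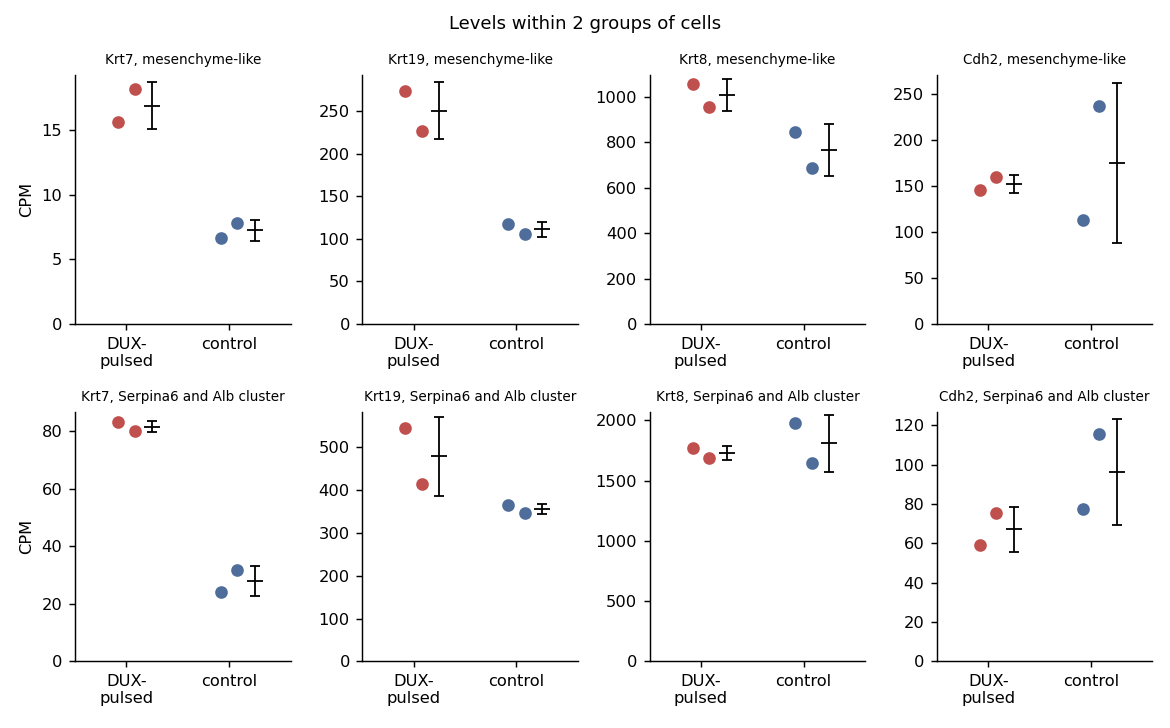
CPM of Krt7, Krt19, Krt8 and Cdh2 in mesenchyme-like cells (top) and in cluster 6, led by Serpina6 and Alb (bottom), with 1 point per library and the mean with SD (n = 2) beside it, on linear axes from 0. DUX-pulsed libraries stand above control libraries for Krt7 and Krt19 in both rows, and overlap with them for Cdh2 in mesenchyme-like cells and for Krt8 in cluster 6.

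In cardiomyocyte-like cells, 5 of the 8 genes had enough counts to be tested and none was called by edgeR or DESeq2, where 7.79% of 10841 tested genes were called by edgeR. At an unadjusted p under 0.05, edgeR gave 2 of the 5 (Krt19 and Epcam) and DESeq2 gave 1. Krt19 had 251 and 221 CPM in DUX-pulsed cardiomyocyte-like cells and 195 and 88.1 CPM in control ones (log2 fold change 0.72, SE 0.273, adjusted p = 0.0995). It passed without control replicate 1 (1.43, adjusted p = 0.00678), with no filter on low counts (0.79, adjusted p = 0.0373) and at a clustering resolution of 2 (0.80, adjusted p = 0.0467), and was 0.28 without control replicate 2 (adjusted p = 0.761). Krt14 had no UMI in any cell of the class. In cluster 3, 4 genes were tested and none was called by either tool, with 1 (Krt18) under an unadjusted p of 0.05 by edgeR and none by DESeq2; 3.93% of its 8858 tested genes were called.

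The difference between the effects in mesenchyme-like and cardiomyocyte-like cells was tested in 1 model with the library as a block. The effect of the DUX pulse was higher in the mesenchyme-like class by 0.82 on the log2 scale for Krt8 (SE 0.215, adjusted p = 0.0241) and by 1.65 for Epcam (SE 0.472, adjusted p = 0.0427), and 5.07% of 12809 genes were called. Krt18 (0.41, adjusted p = 0.339), Krt19 (0.32, adjusted p = 0.478), Cdh1 and Cdh2 (-0.38, adjusted p = 0.279) were not. In the cardiomyocyte-like cells of control replicate 1, 1 of 43 cells held 74 of the 104 Krt8 UMIs, and 1 cell held 26 of the 32 Epcam UMIs. Without that library the differences were 0.28 for Krt8 (adjusted p = 0.677) and -0.08 for Epcam (adjusted p = 0.981), and without the top 5% of doublet scores neither passed (adjusted p = 0.0529 and 0.47). Neither passed without DUX-pulsed replicate 2 (adjusted p = 0.27 and 0.2). In the mesenchyme-like cells of DUX-pulsed replicate 2, 1 of 326 cells held 104 of the 140 Epcam UMIs.

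Cells were also sorted by the cadherin UMIs found in them, with each cell thinned to 5000 UMIs. At this depth a cell without a UMI of a gene can still express it. In cluster 7, with 94.0 CPM of Cdh1, 34.4% of cells had a Cdh1 UMI. Cells with neither cadherin made up 55.4% and 46.0% in DUX-pulsed libraries and 56.6% and 47.9% in control libraries. Cells with Cdh2 and no Cdh1 made up 31.1% and 40.8% of cells in DUX-pulsed libraries and 20.5% and 23.0% in control libraries. Cells with Cdh1 and no Cdh2 made up 11.8% and 10.1% in DUX-pulsed libraries and 17.9% and 22.0% in control libraries. Cells with both made up 1.68% and 3.03% in DUX-pulsed libraries and 5.03% and 7.12% in control libraries. For cells with 1 cadherin only, of either kind, and for cells with both, the groups did not overlap. The exact permutation test over 4 libraries gave a two-sided p of 0.33 for each of these shares, the smallest it can give. In unthinned cells, cells with both were 13.5% and 16.3% in DUX-pulsed libraries and 36.5% and 43.0% in control libraries. As a level of background, 0.943% of thinned cardiomyocyte-like cells had a Cdh1 UMI, and 0 of 162 myeloid and megakaryocyte-like cells had a UMI of either cadherin, which allows a share of up to 1.85%. The share of cells under 5000 UMIs differed between libraries, and 160 and 295 DUX-pulsed and 399 and 472 control cells were left out for it.

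Other genes of filaments and junctions, taken from lists, were set beside the 8. Over all genes tested in the whole culture 15.6% rose and 11.1% fell, 26.7% together. Of 10 other keratins tested in the whole culture, Krt13 and Krt15 rose and Krt4 fell, a share near that of all genes. Krt13, a type I keratin of stratified mucosa, had 0.830 and 0.825 CPM in DUX-pulsed libraries and 0.147 and 0.0729 CPM in control libraries (log2 fold change 2.88, adjusted p = 0.0083), and Krt15, of basal cells, had a log2 fold change of 1.95 (adjusted p = 0.0258). Of 12 other intermediate filament genes, 5 rose, among them Nes, of progenitor cells (2.08, adjusted p = 0.00221), and Des, of muscle (1.84, adjusted p = 0.00259), and 2 fell.

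Of 10 desmosome genes, which anchor keratin filaments at cell junctions, 1 rose and none fell, against 15.6% and 11.1% of all genes. Dsp, whose protein desmoplakin links keratins or desmin to the junction, had 140 and 152 CPM in DUX-pulsed libraries and 59.4 and 69.9 CPM in control libraries (log2 fold change 1.18, SE 0.157, adjusted p = 0.00512). Dsp was also called as higher in the mesenchyme-like class, the cardiomyocyte-like class and cluster 6. Perp, a desmosome protein of stratified epithelium, did not pass (0.29, adjusted p = 0.17). Of 8 genes of hemidesmosomes and keratin linkers, 3 rose (Plec, Itga6 and Cd151), with 0.64 for Cd151 (adjusted p = 0.0227) and 0.59 for Plec, the linker plectin (adjusted p = 0.0233), and none fell. Of 12 catenins and nectins, 3 rose and 2 fell, where 26.7% of all genes were called, with 2.40 for Ctnna3, a catenin of heart (adjusted p = 0.00291), and -1.14 for Nectin1 (adjusted p = 0.00629). Of 11 other cadherins, 5 rose and 3 fell, with 1.99 for Cdh11, a cadherin of mesenchyme (adjusted p = 0.00935), and 3.05 for Cdh16 (adjusted p = 0.0047).

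Of 12 tight junction and polarity genes tested, 7 fell and none rose, where 11.1% of all genes fell and 15.6% rose, among them Crb3, of the apical polarity complex, with 73.5 and 57.3 CPM in DUX-pulsed libraries and 173 and 163 CPM in control libraries (log2 fold change -1.36, SE 0.175, adjusted p = 0.00475), and Marveld3, of tight junctions (-1.16, adjusted p = 0.00727). Of 18 epithelial regulators and proteases, 7 fell, such as Ovol2 (-1.65, adjusted p = 0.003), and 3 rose. Of 12 genes of mesenchymal transition, 9 rose and none fell, against 15.6% and 11.1% of all genes, with 2.2 for Zeb2 (adjusted p = 0.00347) and 3.40 for Tgfbi (adjusted p = 0.00259). Within the mesenchyme-like class 1 of those 12 was called, where 7.64% of all genes tested there were. In cluster 6 all 12 tight junction and polarity genes were tested, and 1 rose and none fell. Of 11 epithelial regulators and proteases tested there, 1 rose and 1 fell. In that cluster 5.67% of all tested genes were called. None of the 8 tight junction genes tested in mesenchyme-like cells or the 9 in cardiomyocyte-like cells was called, where 7.64% and 7.79% of all genes were. In the whole culture the medians were -0.59 for the tight junction list, -0.62 for the epithelial regulators and 2.01 for the mesenchymal list, against -0.002 over all tested genes.

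The genes whose levels over the 53 sums were most like those of Krt8, among 6164 with a mean of at least 20 CPM, were Ezr, which encodes the microvillus linker ezrin (Pearson r = 0.93), Patj, of the polarity complex (0.92), and Tceal9 (0.90). For Epcam they were Cldn6, a claudin of embryonic epithelium (0.97), Prss8, a membrane protease (0.97), and Spint1, an inhibitor of such proteases (0.96). For Cdh2 they were Bambi (0.92), Pam (0.88) and Asb4 (0.87).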

How the data were processed

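The 4 libraries stand in 1 deposited table of UMI counts, whole numbers that the values show were not normalized by the authors. The submitters' processing notes name Cell Ranger 2.2.0, STAR and mm10 without saying what each did, and the labels' protocols name 10x Genomics droplet reagents. Groups and replicates came from column names. Of 10082 barcodes, 8 occurred in more than 1 library.

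Scrublet marked 27 of the kept cells (0.3%, expected 5%), so doublets stayed in, and an alternative dropped the 395 cells in the top 5% of scores. Cells were clustered with scanpy 1.11.5 (Leiden resolution 1 on 30 principal components of 2000 variable genes); a mixed cluster of 379 cells was split at resolution 0.5 after the data were seen. A name needed 4 marker genes among a cluster's top 30 by fold, and clusters of low depth stayed unnamed.

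Counts summed per library, or per library and class with 20 cells or more in each, were tested two-sided with edgeR 4.0.16 (quasi-likelihood, TMM). A gene entered with 10 counts in 2 libraries and 40 in total, and p-values were adjusted by Benjamini-Hochberg over all genes tested (threshold 0.05). DESeq2 1.42.0 and limma 3.58.1 served as alternatives, and the fits were tested on simulated data. With 2 libraries a group, edgeR p-values rest on the spread between these libraries, with each gene's variance drawn toward that of all tested genes. Limits for a count of 0 cover counting error only. Positions came from GENCODE vM21. The 8 genes, the lists and the tests were chosen with earlier results of these data known. The text names the 8 genes, the 2 genes of each list with the smallest p in the whole culture and the 3 genes most like Krt8, Epcam and Cdh2; other names beside counts were added after their values were seen. A gene that the rule names for the list of epithelial regulators is not reported here.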

Additional observations from a re-analysis of the deposited data

Results flagged for a closer look

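The effect of the DUX pulse on Krt8 and Epcam differed between mesenchyme-like and cardiomyocyte-like cells by the edgeR test of the difference itself, by 0.82 and 1.65 on the log2 scale (adjusted p = 0.0241 and 0.0427). For Krt8 the adjusted p lay between 0.000294 and 0.677 over the alternatives, and for Epcam between 0.00193 and 0.981. A few cells held most of the UMIs behind both values in the cardiomyocyte-like cells. The 5 cells with most Krt8 held 54.0% and 51.1% of its UMIs in DUX-pulsed libraries and 91.4% and 66.7% in control libraries. For Epcam such cells held 92.9% and 84.8% in DUX-pulsed libraries and 96.9% and all 5 UMIs in control libraries. In mesenchyme-like cells they held 77.3% and 82.9% of Epcam UMIs in DUX-pulsed libraries and 26.3% and 38.5% in control libraries.

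The Epcam values of the 2 mesenchyme-like clusters had opposite signs. Its log2 fold change was 1.51 in cluster 0, led by Upk3b and Lum, where it had 12.5 and 28.3 CPM in DUX-pulsed libraries and 6.0 and 8.55 CPM in control libraries. In cluster 1, led by Col3a1 and Col1a1, it was -0.67, with 5.27 and 3.51 CPM in DUX-pulsed libraries and 7.52 and 6.34 CPM in control libraries. Neither value passed the test (adjusted p = 0.0862 and 0.385), and the difference between the clusters was not tested. Without the top 5% of doublet scores the value in cluster 0 was -1.36 (adjusted p = 0.198), and 1 cell held 104 of the 140 Epcam UMIs of the class in DUX-pulsed replicate 2. The value in cluster 0 passed with no filter on low counts (1.55, adjusted p = 0.000517), with a replicate block (1.37, adjusted p = 0.00733), without DUX-pulsed replicate 1 (2.02, adjusted p = 0.000796) and without control replicate 2 (1.73, adjusted p = 0.0031), and was 0.84 without DUX-pulsed replicate 2 (adjusted p = 0.452).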

How the results depend on the processing

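Over 522 alternatives to the results on the 8 genes, 411 kept direction and side of the threshold, 16 lost a call, 54 gained one and 41 changed sign, the cause of which was not tested. In the whole culture 4306 genes were called, 2042 with the stricter cell filter and 2134 to 4972 without 1 library (2708 without control replicate 1, 2134 without control replicate 2). With the stricter filter Krt14 (1.71) and Epcam (-0.63) lost their calls, as Krt14 did without trophoblast-like cells (1.52).

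Calls were gained for Krt8 with DESeq2 (-0.55), thinned cells (-0.71), no top doublet scores (-0.59), scaled cells and limma (-0.76), and without trophoblast-like (-0.65) or parietal endoderm-like cells (-0.57). They were gained for Krt18 with DESeq2 (-0.62), thinned (-0.76) and scaled cells (-0.83), and without parietal endoderm-like cells (-0.69). They were gained for Cdh1 with DESeq2 (-0.55), no count filter (-0.56), thinned cells (-0.70), no top doublet scores (-0.58), scaled cells (-0.76), and without trophoblast-like (-0.68) or parietal endoderm-like cells (-0.72). They were gained for Cdh2 with thinned (0.92) and scaled cells (0.78) and without parietal endoderm-like cells (0.77). Krt19 changed sign with thinned (-0.02) and scaled cells (-0.04) and without parietal endoderm-like cells (-0.01). Without 1 library, log2 fold changes ranged from -0.70 to -0.40 (Krt8), -0.89 to -0.37 (Krt18), 0.61 to 1.04 (Krt7), -0.21 to 0.35 (Krt19), -0.98 to -0.68 (Epcam) and 0.21 to 0.98 (Cdh2).

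Labels give no batch behind the replicate numbers, and 2 pairs cannot show that the numbers pair the libraries; same-numbered deviations had a correlation of 0.47 across genes. With a replicate block, 7184 genes were called in the whole culture and 2486 in the mesenchyme-like class, against 924 without it. The replicate block also gave calls to Krt8 (-0.56), Krt18 (-0.64), Cdh1 (-0.55) and Cdh2 (0.59), and turned Cdh2 in cluster 0 to 0.04; with it, 3 of 8 genes were called in mesenchyme-like cells, 4 of 7 in each of clusters 0 and 1, and 3 of 7 in cluster 6. The mesenchyme-like class had 1877 calls with no count filter and 568 at resolution 2. The cardiomyocyte-like class had 845 calls, 425 with DESeq2, 1892 at resolution 0.5 and 381 to 586 without 1 library.

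Other changes of sign were in values that had not passed. In cardiomyocyte-like cells, Krt18 (0.36) and Epcam (0.52) turned with the stricter filter, and Krt18 (0.27), Epcam (0.29) and Cdh2 (-0.10) at resolution 0.5; without 1 library the ranges were -0.99 to 0.18 (Krt8), -0.93 to 0.86 (Krt18), -1.66 to 0.65 (Epcam) and -0.04 to 0.44 (Cdh2). In mesenchyme-like cells, Epcam turned without the top doublet scores (-1.15 in the class, -1.36 in cluster 0), and the ranges without 1 library were -0.01 to 0.61 (Krt18) and -0.63 to 0.43 (Cdh2). In cluster 0 they were -0.16 to 0.59 (Krt18) and -0.47 to 0.54 (Cdh2), with Cdh2 also at 0.04 with the stricter filter and 0.01 with no count filter; in cluster 1 Krt14 was -0.03 without control replicate 1 and Cdh2 was -0.73 to 0.30. In cluster 3, Krt8 was -0.58 with the stricter filter, Krt19 was 0.12 without the top doublet scores, and the ranges were -0.09 to 1.17 (Krt8), -0.71 to 0.56 (Krt19) and -0.85 to 0.01 (Cdh2). In cluster 6, Krt8 was 0.30 with the stricter filter, and the ranges were -0.19 to 0.09 (Krt8) and -0.19 to 0.35 (Krt18).

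For the difference between mesenchyme-like and cardiomyocyte-like effects, 649 genes were called, 369 to 480 without 1 library. Without the top doublet scores Krt8 (0.80) and Epcam (1.05) lost their calls, and without 1 library the ranges were 0.28 to 1.24 (Krt8), -0.37 to 0.91 (Krt18), -0.29 to 0.79 (Krt19), -0.08 to 2.45 (Epcam), -0.85 to 3.49 (Cdh1) and -0.70 to 0.05 (Cdh2). The share of cells with neither cadherin, DUX-pulsed minus control, was -1.52 percentage points in thinned cells and 5.64 in unthinned cells. Rare transcripts limit the depth: Krt14 had 26 to 166 UMIs per library, and control cardiomyocyte-like cells numbered 43 and 23.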
